A study of Mus musculus with 8 samples.

Results

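Heparan sulfate is a sulfated sugar chain carried by core proteins on the cell surface and in the matrix. The genes described here are 10 that act on the finished chain or carry it at the membrane. They are the heparanase family genes Hpse and Hpse2, the extracellular sulfatase genes Sulf1 and Sulf2, the glypican genes Gpc1, Gpc3 and Gpc6, and the syndecan genes Sdc1, Sdc2 and Sdc4. They were chosen by name from 53801 rows of a gene count table, and all 10 were found. Because they were proposed with the difference between the sorted fractions in view, that difference is given for them as a description, and calls on it are given only as the authors deposited them.

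The chain binds growth factors, morphogens and chemokines, holds them near the cell and presents them to their receptors. Its pattern of sulfate groups sets which ligands bind. The pattern is written in the Golgi and can be edited after secretion, by sulfatases that remove sulfate groups and by heparanase, which cuts the chain. In the intestine, stromal cells beneath the epithelium secrete WNT, BMP and FGF ligands, and many of these bind heparan sulfate.

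The 8 RNA-seq libraries came from YFP+ stromal cells of mouse small intestine. The cells lacked CD45, a leukocyte marker, and CD31, an endothelial marker. In 4 libraries the cells were PDGFRα- and in 4 they were PDGFRα+, by the surface receptor for platelet-derived growth factor. All 8 came from mice that the labels name LTβRfloxPDGFRα/YFP, so both groups share the floxed allele of the lymphotoxin β receptor and the YFP label. The labels leave out age, sex, mice per library and what drives the recombination. Nothing says that the libraries of a group come from separate mice, so the p-values cover the spread among libraries, part of which may be technical.

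Library totals ran from 12926651 to 35115771 counts, and the 10 genes had between 124 and 28717 counts in each library. Expression is given as CPM, counts per 1e+06 of the TMM-scaled library total, as mean ± SD over 4 libraries per group. Differences are log2 values of PDGFRα+ minus PDGFRα-, with the SE of the edgeR fit. The 6 fibroblast markers examined summed to 98100 to 138000 CPM in PDGFRα- and 73300 to 93700 CPM in PDGFRα+ libraries, all 6 with a lower mean in PDGFRα+, and their part in the differences given here was not tested. Pdgfra RNA itself overlapped between the groups, at 475 to 750 and 497 to 656 CPM. Markers of leukocytes (6 genes) summed to 153 and 163 CPM in PDGFRα- libraries 3 and 4, and to 33.3 to 76.7 CPM in the other 6 libraries. Markers of endothelium (5 genes) summed to 378 CPM in PDGFRα- library 4 and to 81.1 CPM or less elsewhere. Larger sums came from smooth muscle markers (5 genes), at 264 to 1220 CPM in PDGFRα- and 282 to 808 CPM in PDGFRα+ libraries. They were lowest in library 1 of both groups. Pericyte markers (5 genes) summed to 826 to 1600 CPM in PDGFRα- and 687 to 1240 CPM in PDGFRα+ libraries. Most of that sum was Rgs5 (955 ± 345 and 820 ± 246 CPM), which overlapped between the groups, as did Notch3 and Kcnj8. Named after their values were seen, Cspg4 was higher (32.9 ± 11.9 and 73.0 ± 20.7 CPM) and Abcc9 lower (83.9 ± 12.3 and 34.8 ± 17.8 CPM) in every PDGFRα+ library. Such separations were shown by 2.69% and 2.36% of the tested genes. The part of these lists in the differences was not tested.

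The upstream sequences of both heparanase genes and of Gpc3 are shown because Hpse2 and Hpse had the largest log2 differences of the 10 in the fit without the replicate number, and Gpc3 the lowest p for differences between replicate numbers. Each line gives the 250 bases before the annotated start, 5′ to 3′ on the gene's strand (minus in all), from RefSeq on GRCm38.p6. Capitals mark GC boxes, GGGCGG or its reverse complement CCGCCC.
Hpse2: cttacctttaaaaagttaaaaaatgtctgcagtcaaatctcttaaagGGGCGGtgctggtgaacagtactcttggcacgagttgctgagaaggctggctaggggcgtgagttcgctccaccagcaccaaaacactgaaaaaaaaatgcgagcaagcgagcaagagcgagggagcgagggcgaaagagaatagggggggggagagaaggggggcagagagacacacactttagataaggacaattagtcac
Hpse: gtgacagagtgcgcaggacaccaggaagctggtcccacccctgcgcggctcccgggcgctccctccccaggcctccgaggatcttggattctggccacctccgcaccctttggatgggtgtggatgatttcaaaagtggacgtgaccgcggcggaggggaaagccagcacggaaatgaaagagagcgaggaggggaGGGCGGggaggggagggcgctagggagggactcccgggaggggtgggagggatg
Gpc3: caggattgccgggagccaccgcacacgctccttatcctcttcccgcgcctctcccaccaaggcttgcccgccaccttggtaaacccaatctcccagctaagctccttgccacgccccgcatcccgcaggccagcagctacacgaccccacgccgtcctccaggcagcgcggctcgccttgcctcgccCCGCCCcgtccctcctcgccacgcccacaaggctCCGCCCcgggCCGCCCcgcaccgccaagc

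The windows lie at chr19:43388356-43388605, chr5:100719717-100719966 and chrX:52613975-52614224. The Hpse2 window held 1 GC box, the Hpse window 1 and the Gpc3 window 3, and 32.7% of 32851 such windows held at least 1. None of the 3 held the letters TATAAA on either strand, which 12.4% of the windows did. The Hpse2 window had 9 CpG dinucleotides, against 16 for Hpse, 25 for Gpc3 and a median of 6 over the windows. Of the 10 genes, 6 were in the promoter table.

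Across the 10 genes, 7 had a positive and 3 a negative difference, with a median log2 difference of 0.43, beside -0.01 over all 15643 genes tested. All 10 passed the filter on low counts. In 3 of them, Hpse2, Gpc1 and Gpc6, every PDGFRα+ library lay above every PDGFRα- library, a separation in that direction that 2.69% of the tested genes showed. Over all genes, 38 or 0.243% of those tested passed an edgeR adjusted p of 0.05, a count that ran from 7 to 49 with 1 library left out. A fit that adds the replicate number as a block passed 355 genes or 2.27%. Nothing is read from these counts for the 10 genes, since the contrast was in view when they were chosen. In sorted bulk RNA, a larger share of cells that express a gene and more RNA per cell cannot be told apart.

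**Figure D1:**
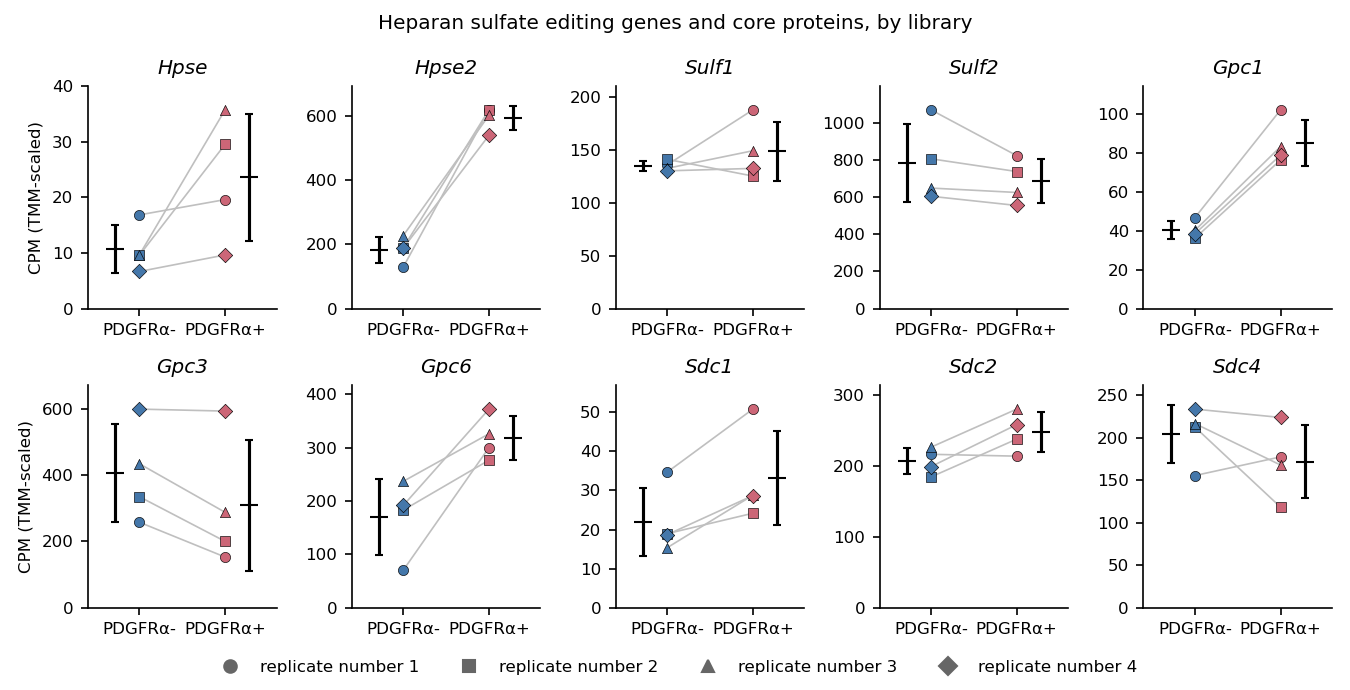
CPM of the 10 genes in each of 8 libraries (PDGFRα- blue, PDGFRα+ red, marker shape for the replicate number, grey lines joining equal numbers, black bars mean ± SD of 4 libraries). For Hpse2, Gpc1 and Gpc6 the groups do not overlap, and in both groups Gpc3 is highest and Sulf2 lowest in the library with number 4.

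Both heparanase family genes had higher means in PDGFRα+ cells. Hpse2 (ENSMUSG00000074852, chromosome 19, 42786539 to 43388355, minus strand, GRCm38) encodes a protein that binds heparan sulfate but does not cut it. Its level was 129, 189, 227 and 188 CPM in PDGFRα- libraries 1 to 4 and 618, 617, 601 and 538 CPM in PDGFRα+ libraries 1 to 4. The PDGFRα+ libraries lay within a 1.15-fold range and the PDGFRα- libraries within a 1.76-fold range, with a wide gap between the groups. The ratio of the means was 3.24 and the log2 difference 1.69 ± 0.18 (SE), or 1.72 ± 0.14 with the block. The difference was positive for every replicate number, from 1.40 for number 3 to 2.26 for number 1. Leaving out any 1 library gave values from 1.56 to 1.82.

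Hpse (ENSMUSG00000035273, chromosome 5, 100679484 to 100719716, minus strand) encodes heparanase, the endoglucuronidase that cuts the chain. It had the lowest mean RPKM of the 10 genes in both groups, although Sdc1 was lower in PDGFRα+ libraries 2 and 3. Its levels were 16.9, 9.60, 9.67 and 6.68 CPM in PDGFRα- and 19.6, 29.5, 35.7 and 9.66 CPM in PDGFRα+ libraries. PDGFRα+ libraries 2 and 3 were high, while PDGFRα+ library 4 lay among the PDGFRα- values, so the groups overlapped. The log2 difference was 1.14 ± 0.40 (SE), and by number it ran from 0.22 for number 1 to 1.89 for number 3. Leukocytes are a known source of heparanase. The summed leukocyte markers were 58.6, 47.5, 153 and 163 CPM in PDGFRα- and 76.7, 33.3, 33.5 and 33.8 CPM in PDGFRα+ libraries 1 to 4, and their part in the Hpse values was not tested.

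Per kilobase of exon, Hpse2 exceeded Hpse in every library. The ratio was 5.82, 15.0, 17.8 and 21.4 in PDGFRα- and 23.9, 15.9, 12.8 and 42.4 in PDGFRα+ libraries, and the groups overlapped. Summed RPKM, which is CPM per kilobase, of both heparanase family genes was 42.7 ± 7.83 in PDGFRα- and 135 ± 10.7 in PDGFRα+ cells, nearly all of it from Hpse2.

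The sulfatases, which remove sulfate groups from glucosamine units of the finished chain and so alter ligand binding, overlapped between the fractions. Sulf2 (ENSMUSG00000006800, chromosome 2, 166073089 to 166155663) stood at 1069, 806, 648 and 604 CPM in PDGFRα- and 823, 737, 625 and 555 CPM in PDGFRα+ libraries. It was lower in the PDGFRα+ library of all 4 replicate numbers, by a log2 value between -0.05 and -0.38, with a fitted difference of -0.19 ± 0.20 (SE). Without PDGFRα- library 1 the difference was 0.001. Exons of Sulf2 overlap Ncoa3 on the other strand by 154 bases. Ncoa3 had 1593 to 4719 counts and was also lower in the PDGFRα+ library of all 4 numbers, with a log2 difference of -0.315 ± 0.15 (SE). The part of Ncoa3 in the Sulf2 values was not tested. Sulf1 (ENSMUSG00000016918, chromosome 1, 12692277 to 12861192) had 136, 141, 133 and 130 CPM in PDGFRα- and 188, 125, 149 and 133 CPM in PDGFRα+ libraries. The PDGFRα- libraries were within a 1.08-fold range, and PDGFRα+ library 1 alone lay clearly above them. The log2 difference was 0.14 ± 0.16 (SE) with all libraries and 0.01 without PDGFRα+ library 1. Per kilobase, Sulf2 exceeded Sulf1 in every library, at ratios of 8.92 to 15.1 in PDGFRα- and 8.04 to 11.3 in PDGFRα+ cells.

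Glypicans are core proteins tied to the outer membrane by a lipid anchor, and here Gpc1 and Gpc6 were higher in PDGFRα+ cells while the mean of Gpc3 was lower. Gpc1 (ENSMUSG00000034220, chromosome 1, 92831645 to 92860779), a co-receptor for FGF ligands, was at 46.7, 36.2, 40.2 and 38.4 CPM in PDGFRα- libraries. In PDGFRα+ libraries it was at 102, 76.3, 83.2 and 78.8 CPM, all above the other group. The ratio of the means was 2.11 and the log2 difference 1.08 ± 0.17 (SE). By number the difference was 1.13, 1.08, 1.05 and 1.04, a narrower range than for any other of the 10 genes. Exons of Gpc1 overlap Ankmy1 on the other strand, which had at most 68 counts in any library.

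Gpc6 (ENSMUSG00000058571, chromosome 14, 116925315 to 117976544), which in mouse bone growth promotes the hedgehog response, was at 70.6, 183, 237 and 192 CPM in PDGFRα- libraries. It was at 300, 276, 326 and 372 CPM in PDGFRα+ libraries. The groups did not overlap, and PDGFRα- library 1 was far below the other libraries of its group. The log2 difference was 0.90 ± 0.29 (SE), and 0.65 without that library. Number 1 had a difference of 2.09 and the other numbers 0.46 to 0.96.

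Gpc3 (ENSMUSG00000055653, chromosome X, 52272426 to 52613950), whose protein binds hedgehog ligands and whose loss in humans causes an overgrowth syndrome, behaved otherwise. It had 258, 335, 434 and 599 CPM in PDGFRα- and 153, 200, 288 and 593 CPM in PDGFRα+ libraries 1 to 4. The library with number 4 was the highest and that with number 1 the lowest in both groups, and the groups overlapped. By number the log2 difference was -0.75, -0.74, -0.59 and -0.02, and the fitted value was -0.40 ± 0.43 (SE) without the block and -0.53 ± 0.13 with it. It was -0.92 without PDGFRα+ library 4 and -0.15 without PDGFRα- library 4, the library with the highest endothelial marker sum, whose part in the difference was not tested.

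As a share of the 3 glypican genes per kilobase, Gpc3 made up 82.7%, 77.8%, 78.3% and 85.7% in PDGFRα- and 46.1%, 56.3%, 61.6% and 75.1% in PDGFRα+ libraries. The PDGFRα+ shares all lay below the PDGFRα- shares. Gpc6 took 9.47% to 17.9% in PDGFRα- and 19.7% to 37.8% in PDGFRα+ libraries. Summed RPKM of the 3 genes was 185 ± 61.7 and 181 ± 78.3, and differed by less than the spread within either group.

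Syndecans span the membrane and signal through a short cytoplasmic tail, and none of the 3 separated the fractions. Sdc2 (ENSMUSG00000022261, chromosome 15, 32920723 to 33034935), the syndecan typical of mesenchymal cells, was at 217, 185, 227 and 199 CPM in PDGFRα- and 214, 238, 281 and 259 CPM in PDGFRα+ libraries. It was higher for 3 of 4 numbers, with a log2 difference of 0.26 ± 0.15 (SE). Sdc4 (ENSMUSG00000017009, chromosome 2, 164424247 to 164443887), a component of focal adhesions, was at 156, 213, 217 and 234 CPM in PDGFRα- and 178, 118, 168 and 224 CPM in PDGFRα+ libraries. It was lower for 3 of 4 numbers, with a log2 difference of -0.25 ± 0.20 (SE) and PDGFRα+ library 2 the lowest of all. The difference was -0.11 without that library and -0.40 without PDGFRα+ library 4.

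Sdc1 (ENSMUSG00000020592, chromosome 12, 8771323 to 8793715), known mainly from epithelial and plasma cells, was low, at 34.6, 19.0, 15.4 and 18.7 CPM in PDGFRα- and 50.8, 24.2, 28.8 and 28.7 CPM in PDGFRα+ libraries. The library with number 1 was the highest in both groups. Sdc1 was higher in the PDGFRα+ library of all 4 numbers, with a log2 difference of 0.59 ± 0.30 (SE), or 0.60 ± 0.21 with the block. Without the block, the difference was 0.31 without PDGFRα+ library 1 and 0.91 without PDGFRα- library 1. The 6 epithelial markers summed to 3.22, 25.5, 13.2 and 11.1 CPM in PDGFRα- and 2.24, 3.52, 1.03 and 4.53 CPM in PDGFRα+ libraries. The 5 plasma cell markers summed to 2.87 CPM or less in every library but PDGFRα+ library 2, which had 37.7 CPM. Of that sum 35.0 CPM came from the gene Igha alone. The part of both lists in the Sdc1 values was not tested. Summed RPKM of the 3 syndecan genes was 145 ± 10.5 in PDGFRα- and 146 ± 20.2 in PDGFRα+ cells.

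**Figure D2:**
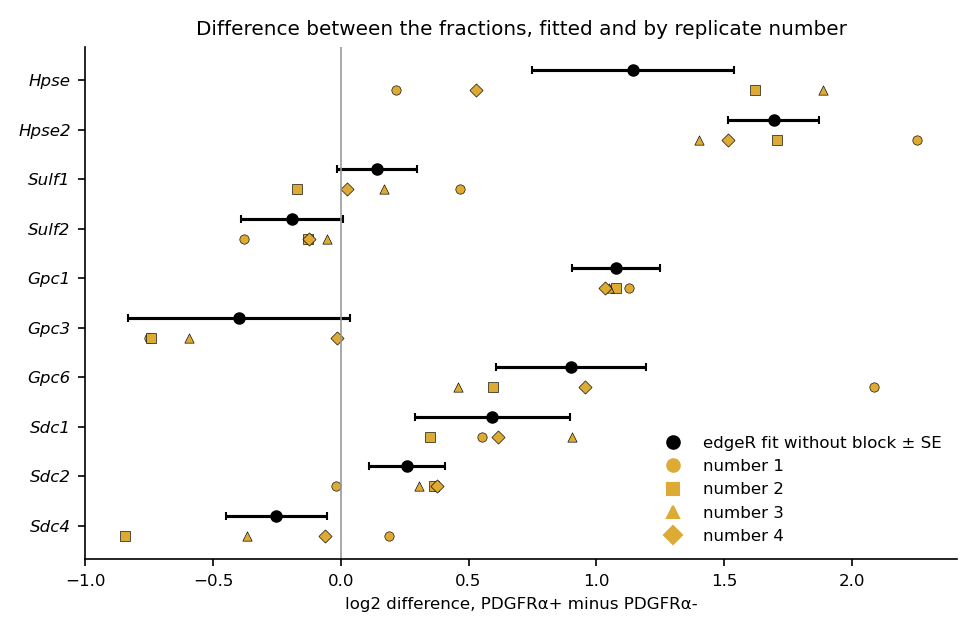
Log2 difference (PDGFRα+ minus PDGFRα-) of each of the 10 genes, as the edgeR fit without block ± SE (black) and as the ratio of the libraries with the same replicate number (yellow, shape for the number). The 4 values for Gpc1 lie within 1.04 to 1.13, and those for Gpc6 and Hpse are widely spread.

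Ordered by RPKM in PDGFRα- cells, the genes were Gpc3 (151 ± 54.7), Sulf2 (133 ± 35.8), Sdc4 (80.4 ± 13.3), Sdc2 (58.7 ± 5.27) and Hpse2 (39.7 ± 8.74). Gpc6 (26.5 ± 11.0), Sulf1 (12.0 ± 0.42), Gpc1 (7.82 ± 0.88), Sdc1 (5.75 ± 2.27) and Hpse (3.04 ± 1.23) followed. The means of Gpc3 and Sulf2, and those of Gpc1 and Sdc1, were closer than the larger SD of the pair, and the other neighbours were further apart than that. In PDGFRα+ cells Hpse2 came first at 128 ± 8.12, followed by Sulf2 (117 ± 20.2), Gpc3 (115 ± 73.4), Sdc2 (70.3 ± 8.04) and Sdc4 (67.5 ± 17.0). Only neighbours were compared, and Sdc4 lay above the next gene, Gpc6, by 17.9, beyond the larger SD of 17.0. Neighbours within these first 5 did not differ beyond the spread, which was 73.4 for each pair with Gpc3. Below them stood Gpc6 (49.6 ± 6.37), Gpc1 (16.5 ± 2.26), Sulf1 (13.2 ± 2.48), Sdc1 (8.69 ± 3.14) and Hpse (6.72 ± 3.25), of which Sdc1 and Hpse did not differ beyond theirs. Hpse2 thus took place 5 of 10 in PDGFRα- and place 1 in PDGFRα+ libraries. With the length of the longest transcript in place of all exons, Sulf2 came first in PDGFRα+ cells at 150 RPKM, and Hpse2 second at 140 RPKM. That length also put Gpc6 at place 4 in PDGFRα+ cells, at 76.8 RPKM and above Sdc2 (70.3) and Sdc4 (69.9). It raised Sulf1 to 24.1 RPKM in PDGFRα- and 26.6 RPKM in PDGFRα+ cells, where it passed Gpc1 (20.4), so sums, shares and ratios per kilobase also depend on the length used.

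**Figure D3:**
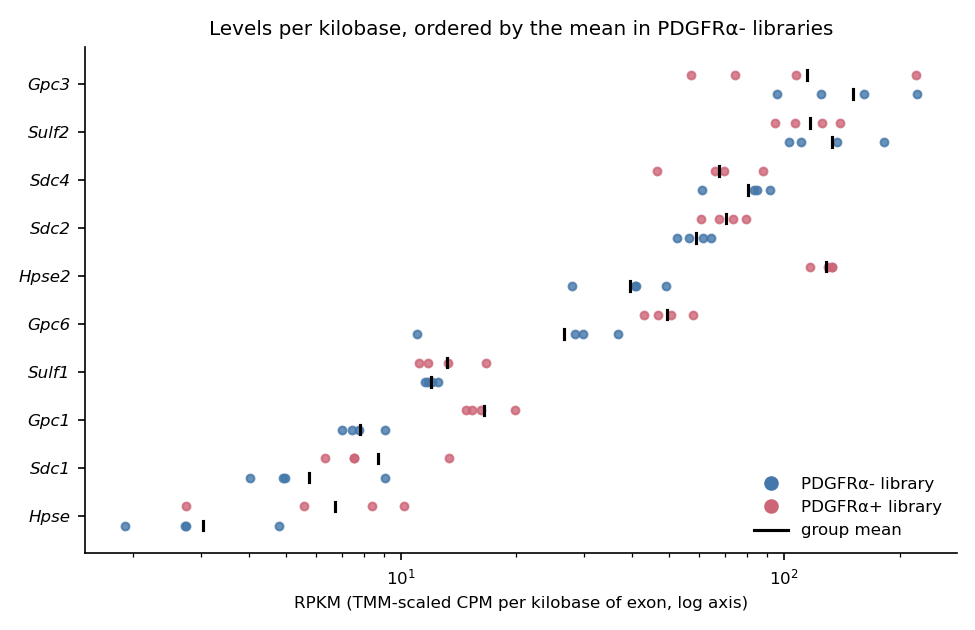
RPKM on a log axis of the 10 genes in each library (PDGFRα- blue, PDGFRα+ red, black ticks for group means). Hpse2 moves from 39.7 to 128, to the level of Sulf2 and Gpc3, and Hpse lies at the low end in both groups.

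A comparison that did not enter the choice of genes is that between replicate numbers, tested with the group as a term. Of the 10 genes, 2 passed, Gpc3 (edgeR adjusted p = 4.04e-04) and Sulf2 (edgeR adjusted p = 0.0384), while 669 or 4.28% of all tested genes did. In both groups, Gpc3 was highest and Sulf2 lowest in the libraries with number 4, and the reverse held for number 1. The labels do not say what libraries with the same number share. The call for Gpc3 held without any 1 number (edgeR adjusted p = 6.64e-06 to 0.0449). That for Sulf2 was lost without number 1, 3 or 4 (edgeR adjusted p = 0.430, 0.0898 and 0.228). Hpse2, Gpc1 and Gpc6 did not pass this test (edgeR adjusted p = 0.674, 0.620 and 0.552).

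Over the 8 libraries, the tested genes whose log2 CPM was most like that of Hpse2 were Ttyh2, Btbd3, Taf15, Pclaf and Catsperz, with Pearson r of 0.97 for each. After subtraction of the group means the closest were Fars2 (0.99), Mob1b (0.97), Kif22 (0.95), Slc35a3 (0.95) and 2210406O10Rik (0.94). No gene stood in both groups of 5. Among the 10 genes, Gpc1 had r = 0.91 with Hpse2 over all libraries and -0.38 within groups, and Gpc6 had 0.85 and 0.87. The value of 0.87 pools both groups, which differed. In PDGFRα- library 1 both genes were lowest of their group (Hpse2 129 and Gpc6 70.6 CPM). In PDGFRα+ library 4 Hpse2 was lowest (538 CPM) and Gpc6 highest (372 CPM), so Gpc6 did not follow Hpse2 in both groups. The points share their libraries, and over all libraries also the group difference, so these values are descriptions. The 5 genes of each list were picked as the highest of 15643 tested genes, so their high r can come from the picking alone.

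The rest of the pathway was examined in 56 genes in 7 lists, of which 52 passed the filter on low counts. Without the block 0 were higher and 0 lower by edgeR, beside 0.192% and 0.0511% of all tested genes. DESeq2 and limma-voom called 0 of them too. Before adjustment 8 of the 52 had an edgeR p below 0.05, a larger share than the 6.95% (1087 of 15643) of all tested genes. With the block 2 of the 52 were higher and 0 lower, beside 1.34% and 0.933% of all tested genes. Before adjustment 12 of the 52 had an edgeR p below 0.05, a larger share than the 11.7% (1823 of 15643) of all tested genes. Nothing is read from these shares, since the lists were written with earlier results of these data known. The median log2 difference of the 52 was 0.08.

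The genes called with the block were Col18a1 and Prkca. Col18a1 (chromosome 10, 77052178 to 77166548), whose product is a basement membrane collagen that carries heparan sulfate, had 498, 404, 320 and 170 CPM in PDGFRα- and 999, 1011, 664 and 291 CPM in PDGFRα+ libraries. The groups overlapped, but it was higher for all 4 numbers, with a blocked log2 difference of 1.04 ± 0.12 (SE, edgeR adjusted p = 1.38e-04) and an edgeR adjusted p of 0.636 without the block. It also differed between numbers (edgeR adjusted p = 1.26e-04), lowest in both groups for number 4, where Gpc3 was highest. Prkca (chromosome 11, 107933387 to 108343928) encodes protein kinase C alpha, which binds the tail of syndecan-4. It was at 64.0, 70.3, 96.2 and 75.0 CPM in PDGFRα- and 133, 123, 92.3 and 144 CPM in PDGFRα+ libraries. Its blocked log2 difference was 0.69 ± 0.17 (SE, edgeR adjusted p = 0.0482), and the call was lost without number 1, 2 or 4 (edgeR adjusted p = 0.248, 0.132 and 0.176). Its exons overlap Apoh on the other strand by 30 bases.

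No gene of chain assembly was called in either fit. Of 9 genes that start the chain and build its linkage 6 had positive log2 differences. Their 3 most abundant were the xylosyltransferase gene Xylt1 (108 ± 28.1 and 88.9 ± 12.4 CPM), Extl3 (80.0 ± 12.6 and 87.3 ± 22.8 CPM) and the xylose kinase gene Fam20b (33.3 ± 9.53 and 35.1 ± 7.39 CPM). The chain polymerase genes Ext1 (424 ± 90.1 and 450 ± 102 CPM) and Ext2 (67.0 ± 19.9 and 83.7 ± 22.7 CPM) overlapped between the groups, and Extl1 did not pass the filter. The group means of each of these 5 genes were closer than its larger SD.

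Of 14 tested genes for N-deacetylation, epimerisation and sulfation, 8 had positive log2 differences. Before adjustment 3 of the 14 had an edgeR p below 0.05 without the block and 6 of the 14 with it. Both are larger shares than the 6.95% and 11.7% of all tested genes, and nothing is read from them. Ndst1, the most abundant N-deacetylase/N-sulfotransferase gene, was at 106 ± 5.34 and 135 ± 15.0 CPM without overlap, with a log2 difference of 0.35 ± 0.15 (SE, edgeR adjusted p = 0.603, and 0.226 with the block). The 2-O-sulfotransferase gene Hs2st1 was at 74.2 ± 16.9 and 71.4 ± 14.9 CPM. Hs6st1, whose enzyme adds the sulfate that the sulfatases remove, was at 57.7 ± 15.0 and 73.8 ± 5.18 CPM (edgeR adjusted p = 0.836 and 0.348 with the block). Named after their values were seen, Ndst3 (5.50 ± 3.37 and 14.1 ± 2.52 CPM) and Hs3st1 (13.4 ± 5.51 and 25.6 ± 5.99 CPM) came close to the threshold with the block (edgeR adjusted p = 0.0515 and 0.0625).

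Genes of precursor supply and of lysosomal breakdown had no call between the fractions. Of 6 supply genes 2 had positive log2 differences, and Ugdh, which makes the UDP-glucuronic acid of the chain, was at 82.0 ± 22.9 and 88.5 ± 31.2 CPM. Ugdh did pass the test of the replicate number (edgeR adjusted p = 0.0219), with number 4 highest in both groups, as for Gpc3. Without number 4, none of the 56 pathway genes passed that test, Col18a1 included. The sulfate donor synthase gene Papss1 (52.5 ± 16.0 and 44.9 ± 8.39 CPM) and the sulfate transporter gene Slc26a2 (31.6 ± 9.20 and 26.9 ± 2.87 CPM) overlapped between groups. Of 7 lysosomal genes 4 had positive log2 differences. The sulfatase gene Ids was at 29.5 ± 2.20 and 34.5 ± 4.29 CPM, Hgsnat at 28.6 ± 2.43 and 26.8 ± 1.75 CPM, and the glucuronidase gene Gusb at 20.5 ± 9.34 and 31.7 ± 9.18 CPM, with overlap between the groups in each.

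Of 9 other core protein genes tested, 5 had positive log2 differences, and Col18a1 was the call. The perlecan gene Hspg2 was at 1438 ± 246 and 1645 ± 110 CPM and Tgfbr3, which encodes the TGFβ co-receptor betaglycan, at 937 ± 267 and 838 ± 119 CPM, neither past the threshold in either fit. Gpc2 had 0 counts in all libraries, and a count of 0 is not read as absence of its RNA. Of 5 partners of the syndecan tail, 3 had positive log2 differences. Apart from Prkca, the most abundant were the syntenin gene Sdcbp (168 ± 15.8 and 142 ± 3.17 CPM, edgeR adjusted p = 0.836 and 0.449 with the block) and Cask (106 ± 22.9 and 148 ± 10.3 CPM, edgeR adjusted p = 0.448 and 0.0522 with the block). In both the groups did not overlap, with Sdcbp lower and Cask higher in every PDGFRα+ library, separations shown by 2.36% and 2.69% of the tested genes.

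**Figure D4:**
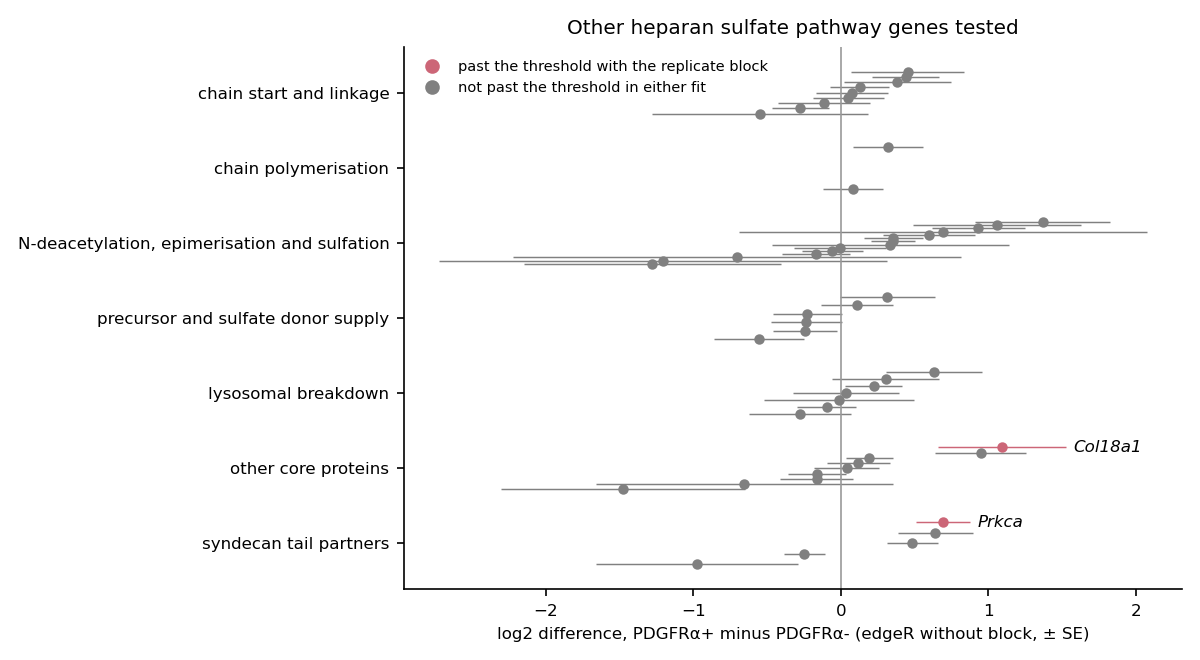
Log2 difference (PDGFRα+ minus PDGFRα-, edgeR without block, ± SE) of the 52 other pathway genes tested, by list. The genes called with the block, Col18a1 and Prkca, are red, and no list lies wholly on one side of 0 except that of chain polymerisation, with 2 genes.

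In the authors' deposited table, 4 of the 10 genes had an adjusted p under 0.05, while 809 or 4.82% of 16785 genes did. Higher, beside 2.30% of genes, were Hpse2 (fold change 3.27, authors' DESeq2 adjusted p = 3.55e-29), Gpc1 (2.09, authors' DESeq2 adjusted p = 1.67e-08) and Hpse (2.08, authors' DESeq2 adjusted p = 0.0482). Hpse was thus only just under the threshold. Gpc3 was lower (0.689, authors' DESeq2 adjusted p = 0.00447), beside 2.52%. That comparison took the replicate number into account, and nothing is read from its count for genes chosen with the contrast in view.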

How the data were processed

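RNA was measured in 8 libraries, made per the labels' protocols from sorted cells with the SMARTer Pico kit, which keeps strand and suits minute amounts of RNA. The submitters' processing notes name GRCm38 (mm10), featureCounts 2.0.1, STAR 2.7.3a, cutadapt 3.4 and DESeq2. Strand use in counting and the annotation are not stated in these sources. The authors deposited raw counts per gene and library. The deposited table also holds counts over a size factor, rounded (read as a score), the authors' mean signal and dispersion per gene, and their fold ratio, log2 fold change and p-value. Those dispersions matched a DESeq2 1.42.0 model with number and group to 1.6e-04% or better.

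Counts of 53801 genes (24547 at 0 throughout) were fitted with edgeR 4.0.16 in R 4.3.3 (quasi-likelihood, robust, TMM, filterByExpr, 15643 genes left, Benjamini-Hochberg over all of them). Group was the only term, as designed, and a fit with the replicate number as a block is given beside it, because the authors' model holds the number. Alternatives were RLE factors, no filter, DESeq2, limma-voom 3.58.1 and leaving out libraries. The code was tested on simulated data. Lengths and positions come from GENCODE M21. Genes were named by rule, namely the 10 genes, pathway genes called in either fit, the 3 most abundant per list and the 5 most like Hpse2. A pathway gene of the designed lists is not reported here and was left out of their counts. The genes and lists were chosen with earlier results of these data known. Of the 50-base stretches in the transcripts of Gpc1, 18.0% lie in Ankmy1 on the other strand, and for the other 9 genes 1.98% or fewer occur in another gene. Counting intervals are not given, and amplified reads are not independent molecules.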

Additional observations from a re-analysis of the deposited data

Results flagged for a closer look

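In 4 of 60 groups of 4 libraries, from the 10 genes and 20 named pathway genes, a single library stood apart from the rest of its group (Dixon's criterion, which chance meets in about 1 of 20 groups). None concerned the 10 genes. Xylt1 was at 149 CPM in PDGFRα- library 2, against 90.6 to 99.4 CPM in the others. Ugdh was at 135 CPM in PDGFRα+ library 4, against 68.5 to 77.3 CPM. Ids was at 40.9 CPM in PDGFRα+ library 3, against 31.8 to 33.1 CPM, and Hspg2 at 1805 CPM in PDGFRα- library 1, against 1280 to 1339 CPM.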

How the results depend on the processing

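Of 190 recomputed differences of the 10 genes, 190 moved by less than the spread between libraries, and 1 changed sign (Sulf2, 0.001 without PDGFRα- library 1). That spread is the SD of single libraries within the groups, a wide bar for means of 4, so the count does not measure stability. Over all settings Gpc3 ran from -0.922 to -0.147 and Hpse from 0.785 to 1.453, against 0.977 to 1.157 for Gpc1. The count of all called genes was 38, but 277 without a filter, 270 by DESeq2 and 7 to 49 with a library left out. It was 355 with the replicate block, and 196, 281, 99 and 300 with the block and number 1, 2, 3 or 4 left out. With the block by DESeq2 and limma-voom, settings chosen after seeing the data, it was 795 and 582. Pathway genes called higher were 0, but 2 without a filter, 2 with the replicate block, 1 to 3 with the block and a number left out, and 5 with the block by DESeq2 and by limma-voom. Those called lower were 0, and 1 with the block without number 2 (0 to 1 without a number). Of the 10 genes, 2 passed the test of the number, 4 without a filter, 3 by DESeq2 and 1 to 3 with a number left out. Pathway genes past it were 2, and 8 without a filter, 7 by DESeq2, 4 by limma-voom and 0 to 5 with a number left out. The causes were not tested.

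Some named pathway genes with differences near 0, none of them called without the block, changed sign when 1 library was left out. Over these settings the differences ran from -0.049 to 0.228 for Fam20b, -0.037 to 0.271 for Extl3, -0.050 to 0.207 for Ext1, -0.196 to 0.048 for Hs2st1, -0.164 to 0.313 for Ugdh and -0.260 to 0.055 for Tgfbr3. With the block, Ext1 was at -0.176 without number 1 and Hs2st1 at 0.075 without number 2.

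Deviations from the group means correlated between libraries with the same number at 0.23, 0.18, 0.02 and 0.25, and the highest correlation was with the own number for 7 of 8 libraries. One value is under the 0.1 set for pairing, so by that rule the numbers are not shown to pair the libraries. The rule does not show that they are unpaired, and the authors' model held the number. With the block, log2 differences not given above were 1.06 ± 0.32 (SE) for Hpse, 0.12 ± 0.13 for Sulf1 and -0.17 ± 0.11 for Sulf2. They were 1.07 ± 0.14 for Gpc1, 1.015 ± 0.26 for Gpc6, 0.26 ± 0.12 for Sdc2 and -0.27 ± 0.15 for Sdc4. The replicate block raised the calls from 38 to 355. Depth limits Hpse most, at 124 to 1107 counts.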
